A study of Mus musculus with 6 samples.

Results

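The genes described here are 10 AP-1 and immediate early genes, most of which cells switch on early after a stimulus: Fos, Fosb, Fosl2, Jun, Junb, Jund, Atf3, Egr1, Btg2 and Zfp36. They were picked by symbol from the 55487 gene identifiers of a count table of mouse testis RNA, with earlier results of these data known. All 10 were found in the table, 9 passed the filter on low counts and Jund had 0 counts in every library. The table covers polyadenylated RNA of whole testes at postnatal day 19, from 3 mice labelled control and 3 labelled dsfb, so n = 3 per group counts separate animals. Per the series title the dsfb mice are homozygous for SFB alleles of both Hormad1 and Hormad2, genes of the meiotic chromosome axis. The labels name no strain, do not spell out SFB and do not say which alleles the control mice carried. The question the design poses for these genes is whether their transcripts differ between dsfb and control testes.

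Immediate early genes are transcribed within minutes of a growth factor, hormone, calcium or stress signal, without new protein synthesis, and their mRNAs are short-lived. FOS and JUN family proteins pair through leucine zippers into the transcription factor AP-1, which binds the TRE sequence and, with ATF partners, the CRE sequence. In the testis, AP-1 proteins are known from Sertoli cells, where FSH induces them, and from Leydig cells, where they act on steroidogenic genes. They are also known to respond to the handling of tissue.

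The libraries held 23983373 to 27707291 counted reads in control and 15335130 to 17306363 in dsfb. Hormad1 was at 209 to 486 CPM (counts per 1000000 counts, on library sizes scaled by the TMM method of edgeR) in control and at 217 to 246 CPM in dsfb, and Hormad2 at 42.9 to 60.0 and 25.1 to 28.7 CPM. The labels do not say whether the alleles should lower these transcripts, so they do not check the genotype. Of 17 markers of Sertoli cells, the somatic nurse cells of the tubules, 16 rose in dsfb and 0 fell (Gata4 by 1.06 and Cldn11 by 1.20 on the log2 scale), and their summed level was 3317 to 4255 CPM in control and 7548 to 7918 CPM in dsfb. All 12 pachytene spermatocyte markers fell, Crisp2 and Nme8 among them, from a sum of 9387 to 13120 CPM to one of 578 to 625 CPM. In whole testis, fewer cells of a type and less RNA per cell cannot be told apart.

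Of the 9 tested genes, 8 rose in dsfb and none fell (edgeR quasi-likelihood test, Benjamini-Hochberg adjusted p under 0.05 over all 19826 tested genes). Of all tested genes, 30.7% rose and 36.2% fell. At an unadjusted p under 0.05, 0 members fell, and DESeq2 and limma-voom called 0 lower as well, where 37.5% and 34.9% of all genes they tested fell. In 8 members every dsfb library lay above every control library, as in 36.2% of all tested genes. Atf3 passed the filter on low counts only through its dsfb libraries, and without it 7 of 8 rose. The median log2 fold change of the 9 genes was 1.54, against 0.02 over all tested genes. Of the 8 that rose, Fos and Atf3 were about 7-fold higher. Btg2, Egr1, Junb and Zfp36 rose by 2.34-fold to 3.16-fold, and Fosl2 and Jun by less than 2-fold. Differences between members were not tested, and the direction of Fosl2 and Jun turned on the Sertoli scale (-0.11 and -0.14). Relative to autosomal Sertoli markers only 4 members were higher (Fos, Atf3, Egr1 and Btg2), as described further on.

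**Figure D1:**
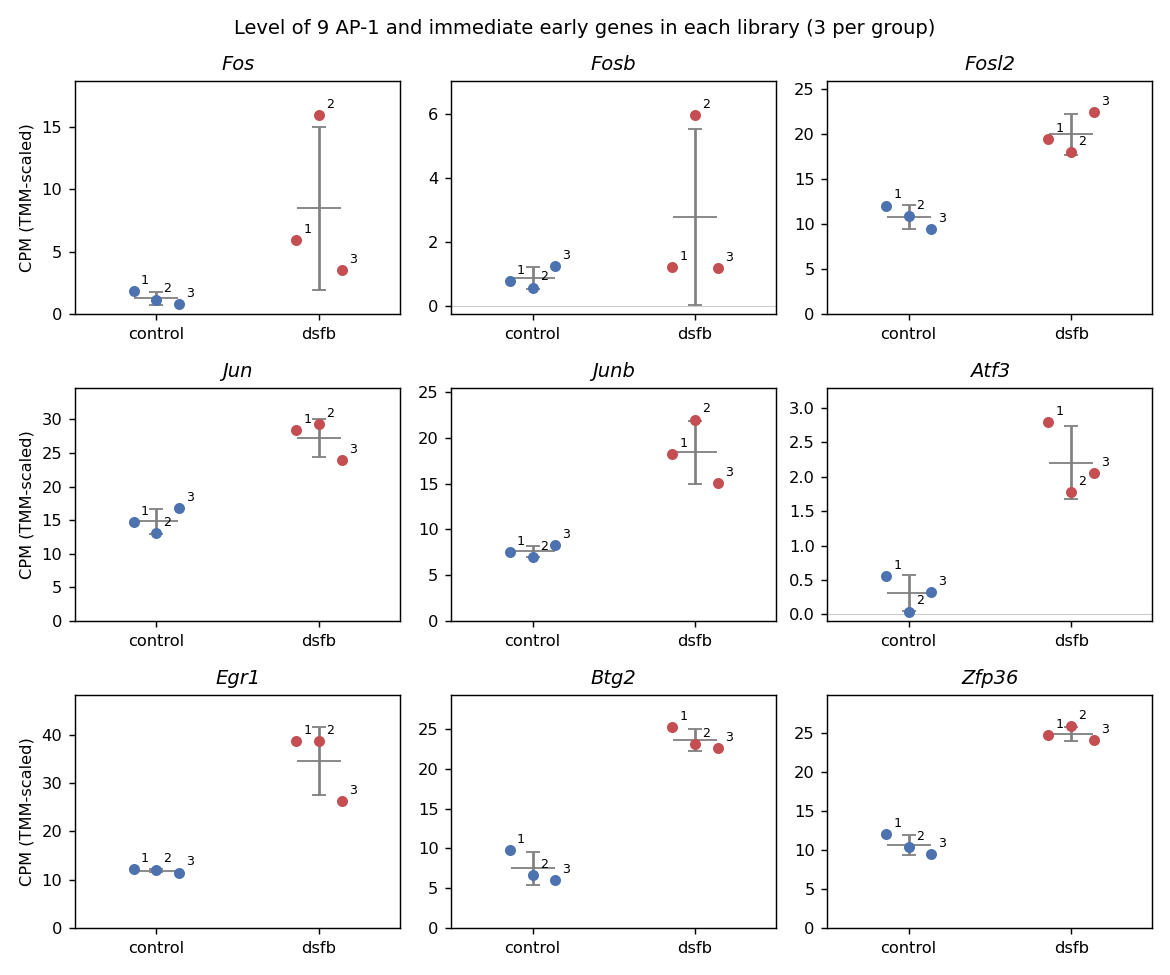
Level of each of the 9 tested genes in CPM on TMM-scaled library sizes (vertical axis, from 0 or just below) in the 3 control and 3 dsfb libraries. Points are libraries with their replicate number, and the grey bars are the mean ± SD. The groups overlap only for Fosb, and dsfb replicate 2 stands above the other libraries for Fos and Fosb.

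Fos, on chromosome 12 (85473890 to 85477273, plus strand, GRCm38), encodes the partner that forms the stimulus-induced AP-1 dimer. The values of a group are given in the order of replicates 1, 2 and 3. The control libraries had 1.81, 1.16 and 0.788 CPM of Fos, and the dsfb libraries had 5.94, 15.9 and 3.51 CPM. Every dsfb library lay above every control library, and dsfb replicate 2 was 4.53 times dsfb replicate 3. The log2 fold change was 2.75 (SE 0.60, 6.71-fold, edgeR adjusted p = 0.00483). Without dsfb replicate 2 it was 1.92 (edgeR adjusted p = 0.0112). Among the 19826 tested genes 52 had a larger log2 fold change.

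Fosb, on chromosome 7 (19302696 to 19310051, minus strand), encodes a close FOS relative. It had 17, 14 and 27 counts in the control libraries (0.791, 0.578 and 1.25 CPM) and 24, 104 and 22 counts in the dsfb libraries (1.22, 5.97 and 1.19 CPM). Only dsfb replicate 2 was above the controls, and the groups overlapped. Its value was 1.67 on the log2 scale (SE 0.69), short of the threshold (edgeR adjusted p = 0.0646), and it was 0.47 without dsfb replicate 2 (edgeR adjusted p = 0.380). It passed without control replicate 3 (1.98, edgeR adjusted p = 0.00379), without dsfb replicate 1 (2.04, edgeR adjusted p = 0.0441) or 3 (2.05, edgeR adjusted p = 0.0434) and in the DESeq2 fit of all 6 libraries (1.58, adjusted p = 0.0439). All 4 of these fits hold dsfb replicate 2.

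Fosl2, on chromosome 5 (32135801 to 32157842, plus strand), encodes FRA2, a FOS family protein that persists longer after a stimulus than FOS. Its levels were 12.1, 10.9 and 9.46 CPM in control and 19.4, 18.0 and 22.5 CPM in dsfb. The groups did not overlap. It rose 1.85-fold (log2 0.89, SE 0.17, edgeR adjusted p = 0.00241). It is the one tested member whose lowest dsfb value was in replicate 2 and highest in replicate 3.

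Jun, an intronless gene on chromosome 4 (95049034 to 95052222, minus strand), encodes the main JUN partner of AP-1. It was at 14.7, 13.1 and 16.7 CPM in control and 28.4, 29.3 and 23.9 CPM in dsfb. Each dsfb library lay above all 3 controls. It rose 1.84-fold (log2 0.88, SE 0.15, edgeR adjusted p = 0.00168). The antisense gene Junos overlaps 7.28% of its exonic bases and had 28, 52 and 54 counts in control and 14, 10 and 21 in dsfb.

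Junb, on chromosome 8 (84974484 to 84978718, minus strand), encodes a JUN protein that often counters JUN and that FSH induces in Sertoli cells. Its levels were 7.54, 7.02 and 8.25 CPM in control and 18.2, 21.97 and 15.1 CPM in dsfb. Each dsfb library was above all controls. It rose 2.42-fold (log2 1.28, SE 0.19, edgeR adjusted p = 0.000780). The peroxiredoxin gene Prdx2 runs into it from the opposite strand over 7.52% of its exonic bases, and had 89.8, 72.4 and 72.9 CPM in control and 144, 173 and 145 CPM in dsfb. Whether reads were assigned by strand is not stated in the labels, so reads in such overlaps are uncertain.

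Jund, also intronless and on chromosome 8 (70698949 to 70700616, plus strand), encodes the JUN protein that most cells make without a stimulus. It was listed at 0 counts in all 6 libraries, which allows up to 3 counts, or 0.124 to 0.172 CPM, per library for counting error only. The antisense gene Gm11175 covers 52.6% of its exonic bases and was also at 0 in all 6 libraries. Jund is transcribed in nearly every tissue, and the 0 is given as listed, not as absence. The part of the overlap in it was not tested.

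Atf3, on chromosome 1 (191170296 to 191218039, minus strand), encodes a stress-induced ATF/CREB family protein that pairs with JUN proteins. It had 12, 1 and 7 counts in control (0.558, 0.0413 and 0.324 CPM) and 55, 31 and 38 counts in dsfb (2.79, 1.78 and 2.05 CPM). Even the lowest dsfb library was more than 3 times the highest control. The log2 fold change was 2.85 (SE 0.62, edgeR adjusted p = 0.00480). It rests on few control reads: without control replicate 1 it was 3.55 and without control replicate 2 it was 2.30 (edgeR adjusted p = 0.00446 and 0.00424). Of all tested genes 47 had a larger log2 fold change.

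Egr1 encodes a zinc finger activator that is induced through the same SRF and ETS-factor route as Fos. It was at 12.1, 12.1 and 11.5 CPM in control and 38.7, 38.7 and 26.4 CPM in dsfb. The control libraries were nearly equal, and dsfb replicate 3 was the lowest of its group. Egr1 rose 2.90-fold (log2 1.54, SE 0.18, edgeR adjusted p = 0.000200).

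Btg2, on chromosome 1 (134075170 to 134079120, minus strand), encodes an antiproliferative protein that recruits mRNA deadenylases and is a target of p53. It went from 9.82, 6.61 and 6.03 CPM in control to 25.2, 23.1 and 22.6 CPM in dsfb. The dsfb libraries were within 1.11-fold of each other, the controls within 1.63-fold. Btg2 rose 3.16-fold (log2 1.66, SE 0.21, edgeR adjusted p = 0.000353).

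Zfp36, on chromosome 7 (28376784 to 28380253, minus strand), encodes tristetraprolin, which binds AU-rich elements in the 3' UTRs of short-lived mRNAs, FOS mRNA among them, and speeds their decay. It was at 12.0, 10.4 and 9.46 CPM in control and 24.7, 25.9 and 24.1 CPM in dsfb. Its dsfb libraries were the closest of any tested member (1.08-fold between highest and lowest). Zfp36 rose 2.34-fold (log2 1.23, SE 0.15, edgeR adjusted p = 0.000250). The antisense gene Gm44710 overlaps 3.60% of its exonic bases and had at most 13 counts in a library.

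The libraries of a group were not alike. Of the 9 tested genes, 6 were highest in dsfb replicate 2 within their group, and 7 were lowest in dsfb replicate 3. Fos and Fosb varied most within dsfb, by 4.53-fold and 5.02-fold between the highest and the lowest library, while the other 7 members varied by 1.08-fold to 1.57-fold there. Red blood cell markers, summed, gave 225, 218 and 21.3 CPM in the control libraries and 334, 309 and 44.2 CPM in the dsfb libraries. Replicate 3 was low in both groups. Control replicate 3 also stood apart in germ cell markers. In control replicates 1 to 3, spermatid markers summed to 170, 188 and 1004 CPM and early meiotic markers to 2071, 2165 and 1184 CPM. The part of such differences in the members' levels was not tested.

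**Figure D2:**
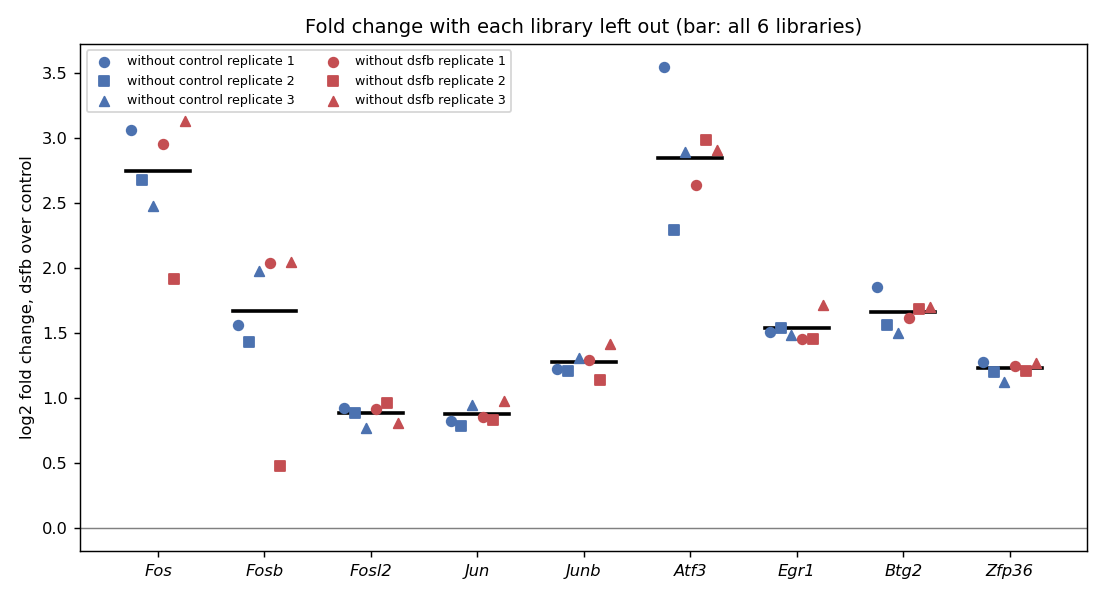
The log2 fold change of dsfb over control (vertical axis) of each tested gene with all 6 libraries (bar) and with 1 library left out at a time (blue symbols for control, red for dsfb). Only Fosb falls below 0.5, at 0.47 without dsfb replicate 2, and Fos moves down to 1.92 without the same library.

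Per kilobase of annotated exon, Jun had the highest level in control (4.65 ± 0.573 CPM per kb, SD, n = 3), above all other members. Junb (3.30 ± 0.269), Zfp36 (3.06 ± 0.371), Btg2 (2.73 ± 0.745) and Egr1 (2.65 ± 0.0868 CPM per kb) followed and overlapped as neighbours. Fosl2 stood alone at 1.12 ± 0.134 CPM per kb, then Fos at 0.533 ± 0.221. Atf3 (0.143 ± 0.12) and Fosb (0.14 ± 0.0551 CPM per kb) were lowest and overlapped. In dsfb the order at the top was Btg2 (8.62 ± 0.497), Jun (8.53 ± 0.905), Junb (8.01 ± 1.5), Egr1 (7.71 ± 1.59) and Zfp36 (7.18 ± 0.270 CPM per kb), and neighbours in it did not separate beyond their spread. Fos (3.59 ± 2.79) and Fosl2 (2.06 ± 0.235) overlapped each other there, as did Atf3 (1.03 ± 0.244) and Fosb (0.447 ± 0.441 CPM per kb). Fos therefore ranked below Fosl2 in every control library and did not separate from it in dsfb.

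**Figure D3:**
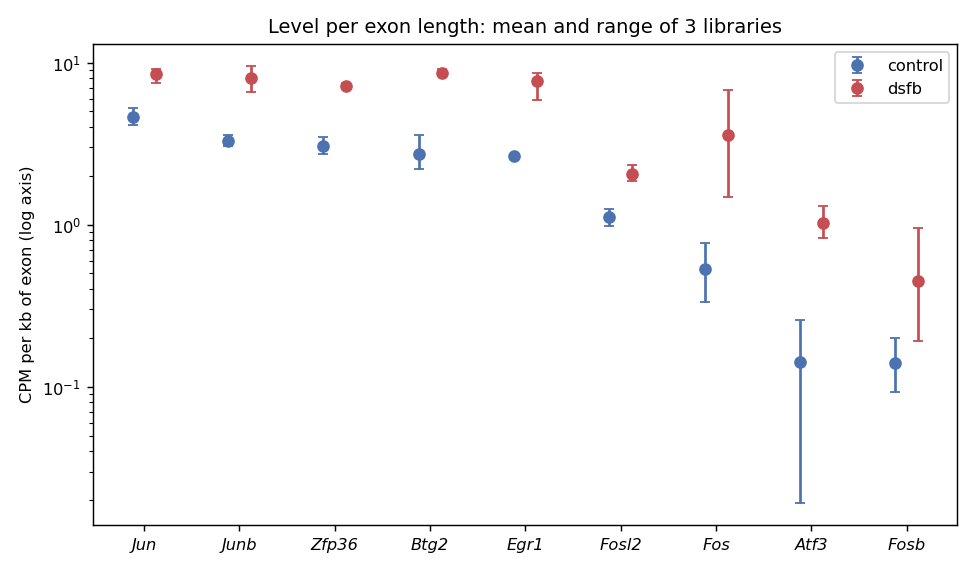
Level of each tested gene in CPM per kb of exon (vertical axis, logarithmic), ordered by the control mean. Points are means and bars run from the lowest to the highest of 3 libraries. Control levels run from 4.65 for Jun down to 0.14 for Fosb, and Btg2, Jun, Junb, Egr1 and Zfp36 lie close together in dsfb.

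The size of each rise depended on what the libraries were scaled to. With library size alone 45.1% of tested genes were higher and 28.9% lower, with upper-quartile scaling 41.3% and 30.9%, and all 9 members were higher with either, Fosb included. The median log2 fold change of 14 autosomal Sertoli markers was 1.0 on the TMM scale. Scaling the libraries to those markers moved the median of all genes by -1.0, and 1.75% of tested genes were then higher and 62.3% lower. On that scale 4 of the 9 members were higher. Atf3 had a log2 fold change of 1.87 (SE 0.62, edgeR adjusted p = 0.03), Fos of 1.79 (SE 0.59, edgeR adjusted p = 0.0296), Btg2 of 0.68 (SE 0.17, edgeR adjusted p = 0.0103) and Egr1 of 0.53 (SE 0.19, edgeR adjusted p = 0.0406). Junb (0.27, edgeR adjusted p = 0.321), Zfp36 (0.24, edgeR adjusted p = 0.171), Fosb (0.66, edgeR adjusted p = 0.467), Fosl2 (-0.11, edgeR adjusted p = 0.567) and Jun (-0.14, edgeR adjusted p = 0.564) did not pass.

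Per library, the ratio of Btg2 to the Sertoli markers, set to a control mean of 1, was 1.19, 0.905 and 0.906 in control and 1.68, 1.59 and 1.53 in dsfb. For Atf3 it was 1.66, 0.139 and 1.20 against 4.59, 3.01 and 3.41, and for Fos 1.33, 0.957 and 0.715 against 2.40, 6.60 and 1.43. Egr1 was at 0.910, 1.03 and 1.06 against 1.60, 1.64 and 1.10, so that its dsfb replicate 3 lay just above the highest control. Zfp36, which did not pass on the Sertoli scale, did not overlap either, at 1.01, 0.995 and 0.991 against 1.15, 1.24 and 1.14. The share of all tested genes without overlap in this ratio was not counted. The same ratio for Jun overlapped, at 0.875, 0.885 and 1.24 in control and 0.935, 0.994 and 0.798 in dsfb. Fosl2 overlapped likewise, at 1.001, 1.02 and 0.975 against 0.889, 0.849 and 1.04, and so did Fosb and Junb. Only Btg2 kept its call when any 1 library was left out on this scale (edgeR adjusted p = 0.0475 at most). Fos lost it without control replicate 2 (1.75, edgeR adjusted p = 0.0894) or dsfb replicate 2 (0.93, edgeR adjusted p = 0.0937), Atf3 without any 1 of the dsfb replicates 1, 2 and 3 (edgeR adjusted p = 0.101, 0.0603 and 0.0709), and Egr1 without control replicate 1 or 2 or dsfb replicate 1 or 2 (edgeR adjusted p = 0.106, 0.0839, 0.144 and 0.15). Without control replicate 3, Fosb (1.10, edgeR adjusted p = 0.0413) and Junb (0.41, edgeR adjusted p = 0.0366) passed as well. With 55 autosomal markers of 6 somatic cell types in place of the Sertoli markers, a scaling chosen after the data had been seen, the same 4 members were higher, as were 3.05% of tested genes, while 55.6% were lower. Their values were 2.07 for Atf3, 1.97 for Fos, 0.86 for Btg2 and 0.72 for Egr1 on the log2 scale (edgeR adjusted p = 0.0113, 0.014, 0.00514 and 0.012).

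**Figure D4:**
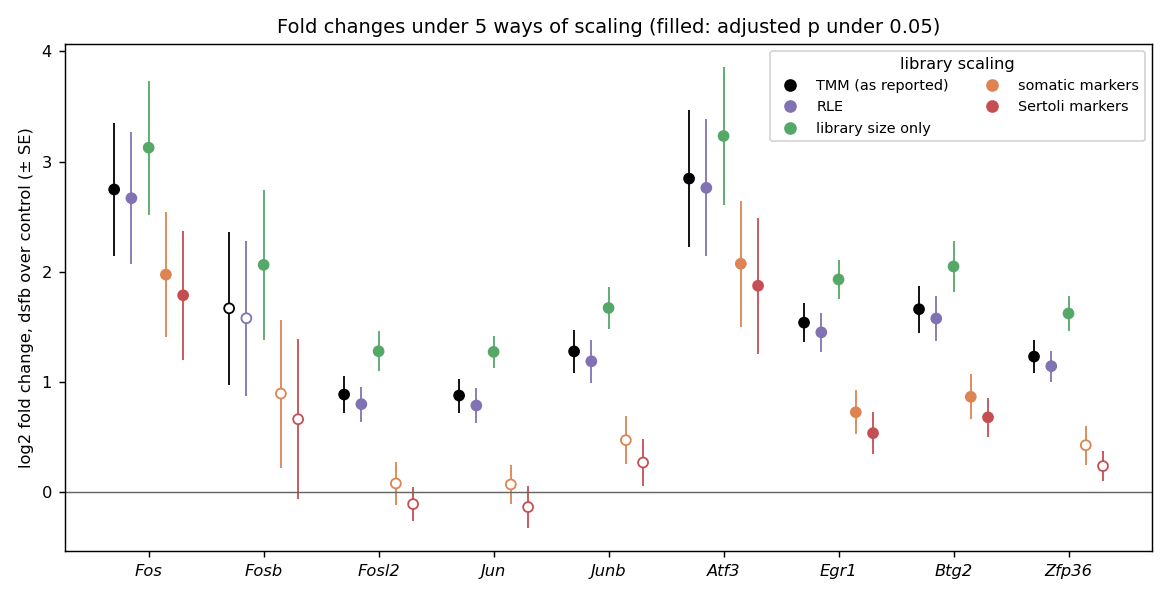
The log2 fold change (vertical axis, bars ± SE) of each tested gene with 5 ways of scaling the libraries. Filled points have an edgeR adjusted p under 0.05. Fos, Atf3, Egr1 and Btg2 are filled in all 5, while Jun and Fosl2 fall to -0.14 and -0.11 with Sertoli markers.

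Some markers of further cell types, somatic cells and spermatogonia among them, rose as well, where 30.7% of all tested genes rose and 36.2% fell. Of 7 fibroblast markers 6 rose (summed 568 to 839 CPM in control, 1482 to 1594 CPM in dsfb), Col1a1 by 1.46 and Col1a2 by 1.26 on the log2 scale. Of 9 Leydig markers 5 rose, with Nr5a1 at 1.22 and Insl3, which overlaps Jak3, at 1.73 (summed 326 to 533 CPM in control, 534 to 817 CPM in dsfb). That count was 2 without dsfb replicate 1 or 3, 3 without dsfb replicate 2 or control replicate 1 or 2, and 8 without control replicate 3, and Insl3 lost its call without control replicate 1 or dsfb replicate 3 (edgeR adjusted p = 0.0589 and 0.0721). Among 9 macrophage and leukocyte markers 5 rose, with C1qa at 1.12 and C1qc at 1.11 (summed 85.8 to 126 CPM against 148 to 234 CPM), but 2 without control replicate 2 or dsfb replicate 3 and 3 without dsfb replicate 1. Of 8 peritubular and smooth muscle markers 4 rose (Myl9 1.13, Myh11 0.86; summed 306 to 427 CPM against 531 to 710 CPM) and of 8 endothelial markers 3 (Egfl7 1.02, Cdh5 0.80; summed 35.1 to 38.2 CPM against 49.5 to 56.4 CPM). Without dsfb replicate 1 a single endothelial marker was higher and Egfl7 lost its call (0.81, edgeR adjusted p = 0.0522), while 5 were higher with library size only or upper-quartile scaling. In edgeR 0 markers of these somatic lists fell, DESeq2 called 1 peritubular marker lower, and no marker of them was at 0 in a whole group. Of 10 spermatogonial markers 7 rose and 1, Dmrtb1, fell (-3.61), Kit being at 0.74 (summed 725 to 920 CPM in control, 465 to 530 CPM in dsfb). Early meiotic markers went both ways, with 3 of 8 higher (Dmc1 1.24) and 2 lower (Spo11 -2.00). The lower count was 1 without control replicate 1 or 2 or dsfb replicate 1 or 3, and 5 without control replicate 3 or by DESeq2. The 1 testable epididymis gene, Rnase10, fell. The part of these cells in the members' levels was not tested beyond the scaling above, on which Myh11, Cdh5 and Kit turned to values below 0.

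Among other AP-1 and small MAF genes, 7 of 10 tested rose and 1 fell (median log2 fold change 0.94), against 1 higher and 3 lower on the Sertoli scale. Over all tested genes 30.7% rose and 36.2% fell, against 1.75% and 62.3% on that scale. Mafg, a small MAF partner of stress-response factors, rose from 36.7 ± 2.73 to 89.8 ± 3.43 CPM (log2 1.29, SE 0.09, edgeR adjusted p = 1.72e-05). Maf, a large MAF factor, was at 1.31 and Mafk, another small MAF, at 0.93 (-0.07 on the Sertoli scale), both past the test. Maf, Mafg and Mafk share exonic sequence with other genes. Atf2, the ATF partner of JUN, was the gene that fell (-0.46, SE 0.08, edgeR adjusted p = 0.00194), a call lost with library size as the only scaling (-0.06) and with upper-quartile scaling (-0.18), and it was named after its values were seen. Fosl1, Batf and Batf2 had at most 15 counts in a library and were not tested.

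Of 37 tested immediate early genes outside the 10, 20 rose and 4 fell (median 0.83), where 30.7% of all tested genes rose and 36.2% fell. On the Sertoli scale 0 of them were higher and 8 were lower, where 1.75% of all tested genes were higher and 62.3% lower. The difference between this list and the members was not tested. Nfkbia, the inhibitor and target of NF-kappa-B, rose from 28.03 ± 2.68 to 66.5 ± 1.79 CPM (log2 1.25, SE 0.10, edgeR adjusted p = 3.70e-05). Trib1, a pseudokinase gene, rose by 1.31 and Rhob, a small GTPase gene induced by stress, by 1.04 on the log2 scale.

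Arc, known as an activity-regulated gene of neurons, had the largest fall of this list. It was at 163, 190 and 313 CPM in control and at 9.90, 7.57 and 9.88 CPM in dsfb (log2 -4.60, SE 0.28, edgeR adjusted p = 7.76e-06). All 3 dsfb libraries were far below the controls. The other falls, named after their values were seen, were the zinc finger genes Egr4 (-1.04, edgeR adjusted p = 0.00244) and Klf4 (-1.66, edgeR adjusted p = 0.0360) and the nuclear factor gene Csrnp1 (-0.85, edgeR adjusted p = 0.00995). Klf4 was at 29.0, 23.5 and 118 CPM in control and at 16.8, 20.6 and 16.7 CPM in dsfb, and its value was -0.57 without control replicate 3. Leaving out dsfb replicate 1, 2 or 3 ended its call (edgeR adjusted p = 0.104, 0.0815 and 0.109), as did fits with library size only, upper-quartile scaling or limma-voom. Csrnp1 overlaps a gene on the opposite strand and lost its call with library size as the only scaling. The spermatid markers were also highest in control replicate 3 (170, 188 and 1004 CPM summed in control, 13.0 to 15.2 CPM in dsfb). In edgeR all 11 tested fell, against 7 without dsfb replicate 2, 6 without dsfb replicate 3 and 3 by limma-voom, and DESeq2, which gave the rest no adjusted p, called 4.

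Of 28 tested genes of the SRF, ETS-factor, CREB and MAP kinase routes that lead to immediate early promoters, 14 rose and 7 fell (median 0.43). On the Sertoli scale 0 were higher and 17 were lower, where 1.75% of all tested genes were higher and 62.3% lower. Without that scaling 30.7% of all tested genes rose and 36.2% fell. The falls named by the rule were in Crem, which encodes the CREB relative of postmeiotic germ cells (156 ± 21.04 to 15.8 ± 1.77 CPM, log2 -3.30, SE 0.14, edgeR adjusted p = 1.11e-06), in the JNK gene Mapk10 (-2.89) and in Atf1 (-1.06). Mapkapk2, the kinase downstream of p38 that acts on tristetraprolin, rose by 0.93, but was at -0.07 on the Sertoli scale. Crem overlaps a gene on the opposite strand. Among 7 tested relatives of Btg2 and Zfp36, 2 rose and 2 fell (median 0.31), beside 30.7% and 36.2% of all tested genes. Without control replicate 3, 4 of these relatives were higher. Zfp36l2 was at 1.19 and Zfp36l1 at 0.63 (-0.39 on the Sertoli scale), both higher, while Btg4, which triggers maternal mRNA decay in eggs and is made in germ cells, fell by 4.43 and Btg1 by 0.72. Btg1 was not called with library size as the only scaling (edgeR adjusted p = 0.0539). Both ZFP36 relatives overlap genes on the opposite strand.

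Heat-inducible chaperone genes, which like immediate early genes respond to handling and stress, moved in both directions. Of 10 tested, 3 rose and 5 fell (median -0.03), and 5 were higher without control replicate 3. Of all tested genes 30.7% rose and 36.2% fell, and a part of handling in any of these levels was not tested. Hspb1 rose by 0.89, and Hspa1a (0.99) and Hspa1b (0.81), named after their values were seen and near-identical copies, were higher as well. On the Sertoli scale 0 of the list were higher, against 1.75% of all tested genes, and Hspb1 was at -0.12 and Hspa1b at -0.18. Dnajb1 fell by 2.04, Bag3 by 1.26 and Hsp90aa1 by 1.25 on the log2 scale. The remaining falls, in Hsph1 (-0.43) and Hsf1 (-0.33), were lost with library size as the only scaling (-0.04 and 0.07, the latter with the direction turned) and with upper-quartile scaling (-0.15 and -0.05). Hsph1 also lost its call without control replicate 2 or dsfb replicate 3 (edgeR adjusted p = 0.0621 and 0.0678), and Hsf1 and Hspa1b without dsfb replicate 1 (edgeR adjusted p = 0.0577 and 0.0526).

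**Figure D5:**
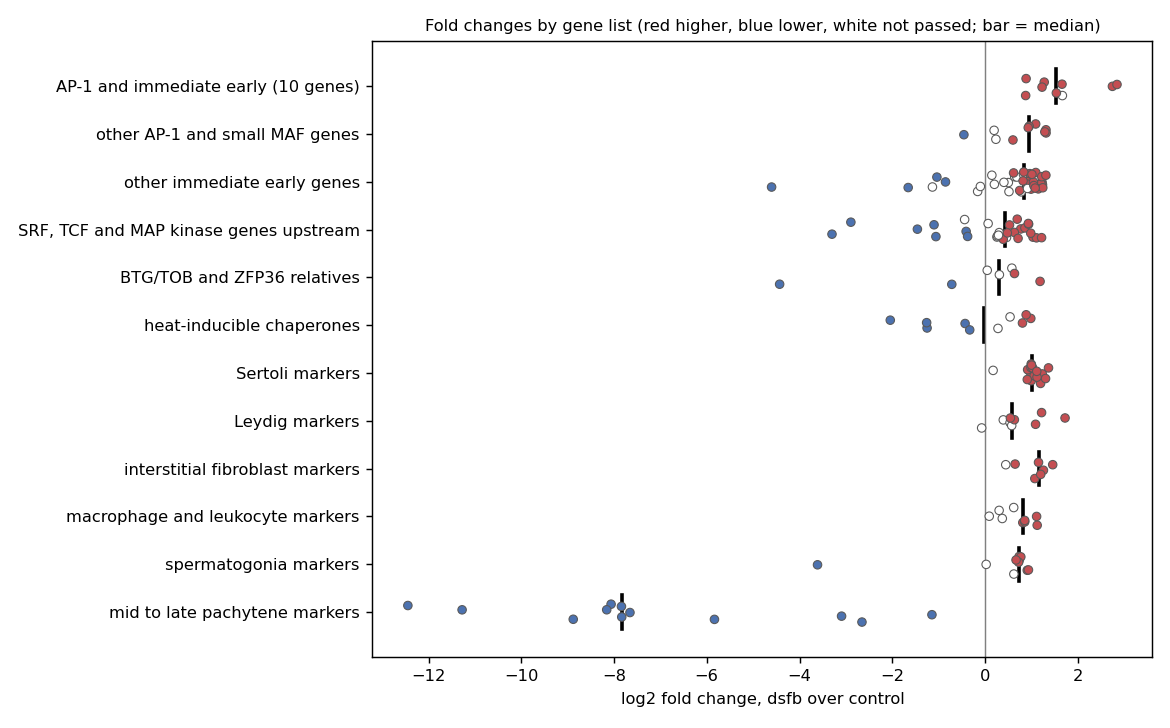
The log2 fold change of dsfb over control (horizontal axis) of every tested gene in 12 lists, with red for higher, blue for lower and white for not passed (edgeR adjusted p under 0.05), and a black bar at each median. The AP-1 and immediate early genes (median 1.54) lie to the right of 0. Medians of other lists lie there as well, those of the fibroblast markers (1.15) and the Sertoli markers (1.0) among them. The pachytene markers lie far to the left (median -7.84).

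The promoters of genes that rose together are shown because AP-1 genes are classic targets of CRE, TRE and serum response elements. RefSeq windows (GRCm38.p6) from 250 bases before to 50 after the start were used for 9 of the 10 genes. The window of Egr1 was left out of the search. Each line gives 100 bases 5' to 3' on the strand of the gene, ending at the base before the start, or 100 bases further up for Btg2. Capitals mark the core of the CRE (Fos, Atf3), the whole CRE (Btg2) and the TRE-like element of Jun. The RefSeq start of Atf3 used here is an internal one in GENCODE.
Fos, chr12:85473790-85473889, plus strand: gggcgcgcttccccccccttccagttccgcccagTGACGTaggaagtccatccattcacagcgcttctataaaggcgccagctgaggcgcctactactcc
Jun, chr4:95052223-95052322, minus strand: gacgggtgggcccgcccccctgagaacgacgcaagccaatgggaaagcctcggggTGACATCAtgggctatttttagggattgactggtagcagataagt
Atf3, chr1:191183334-191183433, minus strand: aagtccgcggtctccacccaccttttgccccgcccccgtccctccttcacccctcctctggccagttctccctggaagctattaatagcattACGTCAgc
Btg2, chr1:134079256-134079355, minus strand: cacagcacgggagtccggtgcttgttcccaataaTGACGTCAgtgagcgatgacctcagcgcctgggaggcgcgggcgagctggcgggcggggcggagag

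Each motif was searched on both strands over the whole window, and its share was counted over all 32851 RefSeq windows. The CRE core TGACGT was in the windows of Fos, Atf3 and Btg2, 3 of 9, and in 7.51% of all windows. Its full form TGACGTCA, which holds the core on both strands, was in that of Btg2 and in 1.79% of all windows. The TRE TGACTCA was in none of the 9 and in 5.20% of all windows, and TGACATCA was in that of Jun and in 3.62%. A CArG box, which SRF binds, was in that of Zfp36 and in 1.63% of all windows. Bases outside the windows and the promoter of Egr1 were not searched, so a member without a match may hold the motif elsewhere. The EGR motif GCGGGGGCG was in those of Fosb, Fosl2 and Zfp36 and in 2.91% of all windows. The core was chosen after the sequences had been seen. A match is a description of letters, not a bound site.

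Short-lived mRNAs often carry AU-rich elements, the binding sites of tristetraprolin, so the annotated 3' UTRs (GENCODE M21, 1 transcript per gene) were searched for the heptamer TATTTAT on the transcript strand. It was present in 8 of the 10 genes, Junb and Egr1 being without it. The first site is shown for the members with the largest rise and for Zfp36, as DNA letters with the heptamer in capitals.
Fos: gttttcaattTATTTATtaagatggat
Atf3: aaatattactTATTTATcccagtattc
Zfp36: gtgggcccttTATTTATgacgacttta
Zfp36 held 3 heptamers in 774 bases and Fos 2 in 815 bases, and 19.4% and 20.1% of other tested genes with a 3' UTR within 20% of those lengths held any. The corresponding shares were 29.9% for Atf3, 30.3% for Jun, 40.5% for Btg2, 40.7% for Fosb and 61.9% for Fosl2. Both Egr1, without the heptamer, and Btg2, with 1, rose by close to 3-fold. The part of the heptamer in the members' levels was not tested.

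The genes whose levels over the 6 libraries most resembled the mean profile of the 9 members, among 14226 genes with at least 1 CPM, were Adam8 (Pearson r = 0.997), Fam210a (0.997), Pak3 (0.996), Mbtps2 (0.996) and Zgpat (0.995). The libraries fall into 2 groups, and r over 6 of them is given as a description. Adam8, a membrane protease gene, was at 2.93, 2.48 and 2.74 CPM in control and at 6.35, 8.55 and 5.94 CPM in dsfb. In dsfb its highest library was replicate 2 and its lowest replicate 3, as for 6 members. Fam210a and Zgpat fell on the Sertoli scale (-0.54 and -0.53; edgeR adjusted p = 0.00651 and 0.0111).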

How the data were processed

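The authors deposited 1 table of raw counts per gene with a column for each of the 6 libraries, and every column was used. STAR 2.6.0 and the genome build mm10 are named in the submitters' processing notes. How reads were counted is not stated there. Symbols, positions and exon lengths came from GENCODE M21 (GRCm38). Counts were tested with edgeR 4.0.16 in R 4.3.3 (filterByExpr by group, TMM, glmQLFit, glmQLFTest, group as the only term), with Benjamini-Hochberg adjustment over all 19826 tested genes. Standard errors were taken as |log2 fold change| divided by the root of F. CPM use TMM-scaled library sizes. DESeq2 1.42.0 and limma 3.58.1 served as alternatives, with other scalings and filters, each library left out in turn and a replicate block. The fits were first tested on simulated data. Counts of same-group libraries differed beyond sampling noise, with a chi-square per degree of freedom of 4.00 to 8.40 between dsfb libraries. Between control libraries it was 6.92 for replicates 1 and 2, and 76.1 and 71.9 for the pairs that held replicate 3.

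The members and the 17 other gene lists were chosen with earlier results of these data known. Of 220 listed symbols, members included, 215 matched directly, 4 by synonym and 1 did not. All members are named, and from each other list up to 4 genes (2 for marker lists) with the smallest p, and the 5 genes most like the members. A gene that this rule names is not reported here. Genes outside this rule (Egr4, Klf4, Csrnp1, Atf2, Hspa1a, Hspa1b, Hsph1 and Hsf1) were named after their values were seen. Limits cover counting error only.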

Additional observations from a re-analysis of the deposited data

How the results depend on the processing

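Scaling was the choice that moved most. With autosomal Sertoli markers as the scale, 347 genes were higher and 12361 lower, and 4 members were higher; with somatic markers, chosen after the data were seen, the counts were 605, 11031 and 4. Leaving out 1 library at a time on the Sertoli scale, also chosen later, gave 198 (without dsfb replicate 2) to 616 (without control replicate 3) higher genes, 11712 to 12685 lower genes and 1 (without dsfb replicate 2) to 6 (without control replicate 3) higher members. The counts without control replicates 1 and 2 and dsfb replicates 1 and 3 were 259, 271, 208 and 204 higher genes, 12209, 11712, 11777 and 12042 lower genes and 3, 2, 2 and 3 higher members, and without dsfb replicate 2 there were 11916 lower genes. Scaling also moved the share of calls that were higher, from 45.9% to 60.9% with library size only, 57.2% with upper-quartile scaling, 2.73% with Sertoli markers and 5.20% with somatic markers, and with no filter on low counts it was 35.5%. The median of all genes moved by 0.40, 0.28, -1.0, -0.81 and -0.30 in these settings.

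On the Sertoli scale the higher and lower counts were 1 and 3 for other AP-1 and small MAF genes and 0 and 8 for other immediate early genes. They were 0 and 17 for SRF, ETS-factor and MAP kinase genes and 0 and 4 for the relatives of Btg2 and Zfp36. On it 0 chaperones were higher, and of all tested genes 1.75% were higher and 62.3% lower. With library size only or upper-quartile scaling 0 other AP-1 genes were lower, 5 relatives of Btg2 and Zfp36 were higher, and 5 chaperones were higher and 3 lower. With library size only 2 other immediate early genes and 1 such relative were lower. Without control replicate 3, 4 relatives and 5 chaperones were higher.

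Direction turned on the Sertoli scale for Fosl2 (-0.11), Jun (-0.14), Mafk (-0.071), Mapkapk2 (-0.069), Zfp36l1 (-0.39), Hspb1 (-0.12), Hspa1b (-0.18), Myh11 (-0.12), Cdh5 (-0.19), Alas2 (-0.69), Kit (-0.25), Fam210a (-0.54) and Zgpat (-0.53), and with library size only for Hsf1 (0.067). With single libraries left out on the Sertoli scale, Fosb was at -0.57 (without dsfb replicate 2), Fosl2 between -0.20 and -0.051 (-0.11, -0.092 and -0.13 without control replicates 1, 2 and 3, -0.081, -0.051 and -0.20 without dsfb replicates 1, 2 and 3), and Jun at -0.22, -0.22, -0.16, -0.21 and -0.051 without control replicates 1 and 2 and dsfb replicates 1, 2 and 3, but at 0.046 without control replicate 3. The causes were not tested.

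Same-numbered libraries deviated together with correlations of 0.071, 0.061 and 0.116, so the numbers are not taken to pair the samples. With the replicate block 6228 genes were higher and 7203 lower and 8 members were higher, against 6080, 7176 and 8 without it. Of the 5 red blood cell markers 4 were higher with the block and 0 without it (Hba-a2 1.99, edgeR adjusted p = 0.000689), and 4 early meiotic markers were lower with it against 2 without it. By deviations each library correlated best with its own number, which is a hint from the data only. Depth limits Atf3 and Fosb, with 1 to 27 counts in each control library, and Jund.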
